A study of Rattus norvegicus with 9 samples.

Results

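Bile duct cells (cholangiocytes) and the duct-like cells of the ductular reaction were followed through 8 marker genes in bulk RNA-seq of rat liver. The genes were Krt7, Krt19, Epcam, Sox9, Spp1, Cldn4, Cldn7 and Cftr, taken by their symbols from the deposited tables as a named set of duct markers. All 8 were found among the 32883 genes listed, and all 8 were among the 14089 genes with enough reads to be tested. The study asked whether an extracorporeal circuit called UTOpiA helps rats with acute-on-chronic liver failure (ACLF), and 9 livers were sequenced, 3 from normal rats, 3 from ACLF rats on an empty circuit and 3 from ACLF rats on UTOpiA. The rats were male Sprague-Dawley rats aged 8 to 11 weeks. ACLF rats underwent ligation of the common bile duct for 21 days and then received lipopolysaccharide (LPS) at 0.25 mg/kg, their blood was circulated for 2 h from 1 h after LPS, and the liver was taken 24 h after LPS. The empty circuit held neither cells nor an apheresis column. The UTOpiA circuit held a granulocyte-monocyte apheresis column, which removes these white cells from blood, and alginate-encapsulated organoids of hepatocyte-like cells made from gene-edited human induced pluripotent stem cells. For the normal livers the labels name no ligation, LPS or circuit, and livers with ligation alone or LPS alone were not analysed here, so these 3 factors cannot be told apart in a comparison with normal liver. The labels call the 3 livers of a group biological replicates.

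Cholangiocytes line the bile ducts and modify bile by secreting chloride, bicarbonate and water. When bile flow is blocked, strands and small tubes of cells with cholangiocyte features spread from the portal tracts, a change known as the ductular reaction, and bile duct ligation is a standard way to provoke it in rats. The markers cover several jobs of such cells: Krt7 and Krt19 are keratins of simple epithelium, Epcam is a surface adhesion molecule, Cldn4 and Cldn7 are tight junction proteins, Sox9 is a transcription factor of the biliary fate, Cftr is the chloride channel of the luminal membrane, and Spp1 encodes osteopontin, a secreted matrix protein.

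Between 14241172 and 17321677 reads were counted per library. The tissue label was checked on albumin (Alb), which took 13.3% to 14.9% of the counted reads of normal livers, while ACLF livers gave 1.54% to 3.91%. Because a share freed by such a gene is spread over all others, fold changes were taken after TMM scaling (factors of 0.80 to 1.32), which placed the median of all tested genes at 0.04 between empty and normal and at 0.05 between UTOpiA and normal on the log2 scale. Levels are given as TPM, transcript abundance scaled by gene length and by library, with the mean ± SD over 3 livers.

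All 8 markers were higher in ACLF livers than in normal livers, in both circuit groups. Against normal, 8 of 8 were called higher in the empty group (edgeR quasi-likelihood test; a call needs more than a 2-fold change and an adjusted p below 0.05), where 20.7% of all tested genes were called higher. The members' log2 fold changes ran from 3.04 to 7.52 with a median of 6.56. In the UTOpiA group 8 of 8 were again called higher than normal, against 18.2% of all tested genes, with log2 fold changes from 2.44 to 7.01 and a median of 5.62. DESeq2 likewise called 8 of 8 higher in each group, with 19.6% and 18.1% of its tested genes called higher for empty and UTOpiA. Both comparisons use the same 3 normal livers. The TPM of each marker in the 3 livers of either ACLF group lay above all 3 normal livers, as did 53.4% of tested genes for empty and 39.0% for UTOpiA. An exact two-sided permutation test of TPM gave p = 0.1 for every marker in both comparisons, the smallest p that 3 against 3 livers allow. In bulk tissue, more cells of a type and more RNA per cell cannot be told apart.

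For 7 of the 8 markers no normal liver held more than 30 reads, so these passed the filter on low counts through the ACLF livers. Their fitted log2 fold changes therefore rest on few normal reads, and for the lowest of them a ratio of pooled reads (the reads summed over the livers of a group, divided by the summed library totals of that group) is given with a 95% interval that covers counting error only. Positions are those of the deposited tables, which name no build, while the submitters' processing notes name rn6. Among ACLF livers the lowest count of any marker was 85 reads.

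Promoters of 4 markers could be read from RefSeq (build GRCr8), namely Epcam, Spp1, Cldn7 and Cftr, and not for Krt7, Krt19, Sox9 and Cldn4. They are shown as the 250 bases before the annotated start, 5′ to 3′ on the strand of the gene, because these 4 genes were called higher together while their upstream sequences differ in composition. Capitals mark the letters matched by one of 3 motifs searched on both strands, the AP-1 motif TGANTCA, the TEAD motif GGAATG and the SOX motif ACAATG, whose matches in these windows did not overlap.
Epcam, chr6:12649679-12649928, minus strand: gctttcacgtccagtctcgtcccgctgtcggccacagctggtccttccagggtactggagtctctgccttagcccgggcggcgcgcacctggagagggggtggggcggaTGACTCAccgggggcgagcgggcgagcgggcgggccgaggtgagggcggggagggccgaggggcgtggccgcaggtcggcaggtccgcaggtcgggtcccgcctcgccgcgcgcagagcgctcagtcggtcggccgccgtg
Spp1, chr14:5619805-5620054, minus strand: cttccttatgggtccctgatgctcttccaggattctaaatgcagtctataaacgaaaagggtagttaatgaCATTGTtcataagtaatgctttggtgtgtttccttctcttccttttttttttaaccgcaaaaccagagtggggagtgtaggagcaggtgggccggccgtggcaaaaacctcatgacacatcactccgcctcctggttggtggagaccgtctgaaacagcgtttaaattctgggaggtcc
Cldn7, chr10:55188420-55188669, plus strand: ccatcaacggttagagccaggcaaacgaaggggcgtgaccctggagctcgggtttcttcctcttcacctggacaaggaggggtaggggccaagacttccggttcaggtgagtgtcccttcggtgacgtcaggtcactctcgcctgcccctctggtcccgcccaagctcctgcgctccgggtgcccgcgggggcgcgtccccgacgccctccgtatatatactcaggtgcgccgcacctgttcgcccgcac
Cftr, chr4:47527379-47527628, plus strand: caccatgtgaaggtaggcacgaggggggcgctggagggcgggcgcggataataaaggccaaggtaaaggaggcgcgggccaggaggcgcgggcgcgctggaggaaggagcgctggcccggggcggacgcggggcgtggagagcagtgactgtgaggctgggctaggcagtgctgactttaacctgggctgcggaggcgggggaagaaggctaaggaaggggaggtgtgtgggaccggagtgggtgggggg
The Epcam window held 1 match to the AP-1 motif, TGACTCA, at 141 to 135 bases before the start. The Spp1 window held 1 match to the SOX motif on the opposite strand, written here as CATTGT, at 179 to 174 bases before the start. The Cldn7 and Cftr windows held no match to these letters. Among 33469 windows of the same length, 6.34% held the AP-1 motif, 12.1% the TEAD motif and 11.1% the SOX motif, so each match is a description of the sequence and nothing more. GC content was 75.6% for Epcam, 69.2% for Cftr, 65.6% for Cldn7 and 46.8% for Spp1, against a median of 51.2% over all windows.

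Of the keratins, Krt7 (ENSRNOG00000008057, chr7:143059764-143075907, plus strand) is typical of duct epithelium and is low in mature hepatocytes. It stood at 0.121, 0.285 and 0.0562 TPM in normal replicates 1, 2 and 3, at 24, 39 and 65.5 TPM in the empty group and at 18.6, 54.5 and 10.8 TPM in the UTOpiA group. The normal livers held 2, 5 and 1 reads, empty replicate 3 was the highest ACLF liver and UTOpiA replicate 3 the lowest. Its log2 fold change against normal was 7.52 (SE 0.76, adjusted p = 0.000169) in the empty group and 7.01 (SE 0.76, adjusted p = 0.000338) in the UTOpiA group by edgeR. The ratio of pooled reads, empty over normal, was 281 (143 to 652).

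Krt19 (ENSRNOG00000014233, chr10:88055841-88060561, minus strand), the keratin most used to stain bile ducts, measured 0.181, 1.28 and 0.336 TPM in normal livers. It reached 14.7, 38.5 and 36 TPM in the empty group and 14.9, 34.6 and 6.67 TPM in the UTOpiA group. Empty replicates 2 and 3 and UTOpiA replicate 2 were close together and high, while the other ACLF livers were lower but still far above normal. The edgeR log2 fold change was 5.07 (SE 0.73, adjusted p = 0.000784) for empty and 4.51 (SE 0.73, adjusted p = 0.00189) for UTOpiA against normal. The gene lies inside the annotated span of Krt14 on the same strand. Krt14 had at most 2 reads in any library, which cannot show whether reads shared by both genes were left uncounted. The other 7 markers overlap no listed gene.

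Epcam (ENSRNOG00000015667, chr6:11281964-11298216, minus strand) had the highest mean level of the markers in every group, though Spp1 was higher in empty replicates 1 and 3. Normal livers had 15.3, 20.5 and 13.5 TPM, empty livers 115, 239 and 234 TPM and UTOpiA livers 116, 167 and 63.7 TPM, so it was the only marker with a level well above 0 in uninjured livers. It also had the smallest change, with an edgeR log2 fold change of 3.04 (SE 0.32, adjusted p = 0.000142) for empty and 2.44 (SE 0.31, adjusted p = 0.000526) for UTOpiA against normal. Empty replicate 1 was level with UTOpiA replicate 1, and UTOpiA replicate 3 was the lowest ACLF liver.

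Sox9 (ENSRNOG00000002607, chr10:101288489-101293379, plus strand) marks duct cells and, in injury, hepatocytes that take on duct features. Normal livers gave 0, 0.172 and 0.271 TPM, from 0, 5 and 8 reads. The level was 11.7, 20.1 and 15.1 TPM in the empty group and 4.84, 15.4 and 3.24 TPM in the UTOpiA group, where replicate 2 lay within the empty range and replicates 1 and 3 below it. By edgeR the log2 fold change against normal was 6.15 (SE 0.75, adjusted p = 0.000359) for empty and 5.24 (SE 0.74, adjusted p = 0.00105) for UTOpiA, and the ratio of pooled reads of empty over normal was 105 (61.1 to 197).

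The claudins seal the junctions between duct cells. Cldn4 (ENSRNOG00000001476, chr12:24761210-24763005, plus strand) was at 0.278, 0.0655 and 0.0646 TPM in normal livers, at 18.6, 28.5 and 58.8 TPM in the empty group and at 14.8, 35.8 and 5.80 TPM in the UTOpiA group. Normal livers held 4, 1 and 1 reads, and UTOpiA replicate 2 exceeded empty replicates 1 and 2 while UTOpiA replicates 1 and 3 were below all empty livers. The log2 fold change against normal was 7.43 (SE 0.86, adjusted p = 0.000287) for empty and 6.63 (SE 0.86, adjusted p = 0.000716) for UTOpiA by edgeR, and the ratio of pooled reads of empty over normal was 269 (123 to 734).

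Cldn7 (ENSRNOG00000017325, chr10:56576428-56578626, plus strand) measured 0, 0.194 and 0.383 TPM in normal livers from 0, 2 and 4 reads, 15.5, 35.8 and 35.7 TPM in the empty group and 29.9, 33 and 18.3 TPM in the UTOpiA group. Unlike the other markers its lowest ACLF liver was empty replicate 1, and its group means were 29 ± 11.7 TPM in empty and 27.1 ± 7.78 TPM in UTOpiA. Its edgeR log2 fold change was 6.60 (SE 0.56, adjusted p = 7.30e-05) for empty and 6.69 (SE 0.56, adjusted p = 9.98e-05) for UTOpiA against normal, with a ratio of pooled reads of empty over normal of 149 (68.1 to 406).

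Cftr (ENSRNOG00000055103, chr4:42692836-42860676, plus strand), whose opening drives chloride and then bicarbonate into bile, was at 0.0548, 0.223 and 0.0848 TPM in normal livers. It was at 10.03, 24 and 15 TPM in the empty group and 9.55, 17.3 and 3.98 TPM in the UTOpiA group. Empty replicate 2 was the highest and UTOpiA replicate 3 the lowest of the 6 ACLF livers. The log2 fold change by edgeR was 6.53 (SE 0.63, adjusted p = 0.000142) for empty and 5.96 (SE 0.63, adjusted p = 0.000311) for UTOpiA against normal.

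Spp1 (ENSRNOG00000043451, chr14:6673686-6679901, minus strand) had the widest spread among injured livers. Its TPM was 0.411, 2.32 and 0.306 in normal livers, then 129, 66 and 245 on the empty circuit and 16, 100.1 and 39.6 on UTOpiA, a 15.3-fold span from UTOpiA replicate 1 to empty replicate 3. The edgeR log2 fold change against normal was 6.62 (SE 0.95, adjusted p = 0.000800) for empty and 5.28 (SE 0.91, adjusted p = 0.00269) for UTOpiA. Osteopontin is also made by activated macrophages. The macrophage gene Gpnmb, called higher in both ACLF groups, was at 9.16, 5.05 and 9.46 TPM in normal livers, 316, 57.6 and 301 TPM in the empty group and 57.7, 197 and 24.9 TPM in the UTOpiA group. The list had no single order of livers, since Clec4f, a Kupffer cell receptor, stood at 32.7, 228 and 14.3 TPM in the empty group and 136, 23.1 and 88.6 TPM in the UTOpiA group and was not called. Against 20.7% (empty) and 18.2% (UTOpiA) of all tested genes, 8 and 6 of 11 macrophage markers tested were called higher than in normal livers. Their summed TPM was 320.4 to 389 in normal, 872 to 1316 in empty and 423 to 924 in UTOpiA livers, and their part in the Spp1 level was not tested. Of these genes Adgre1 (2.42) and Csf1r (2.03) were called higher in empty than in normal livers, and Trem2 was listed at 0 TPM in each normal liver and at 1.41 to 9.75 TPM in ACLF livers.

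The size of these changes depended on single normal livers. Without normal replicate 2, the highest normal liver for each of these genes, the edgeR log2 fold change of empty from normal was 8.09 for Spp1, 6.24 for Krt19, 8.28 for Krt7 and 7.29 for Cftr. Without normal replicate 1 it was 8.40 for Cldn4, and without normal replicate 3 it was 6.90 for Sox9 and 7.53 for Cldn7. The same omissions gave UTOpiA values of 6.75 for Spp1, 5.67 for Krt19, 7.78 for Krt7, 6.72 for Cftr, 7.60 for Cldn4, 5.99 for Sox9 and 7.61 for Cldn7. Other omissions lowered the values of empty from normal. Without normal replicate 1 they were 4.66 for Krt19, 5.59 for Sox9, 6.06 for Cldn7 and 6.19 for Cftr. Without normal replicate 3 they were 7.13 for Krt7 and 6.18 for Spp1, and without normal replicate 2 Cldn4 was at 7.09. Without UTOpiA replicate 2 the UTOpiA values dropped to 4.66 for Spp1, 3.91 for Krt19, 6.31 for Krt7, 5.96 for Cldn4 and 4.51 for Sox9. Epcam moved least, between 2.84 and 3.29 for empty and between 2.24 and 2.63 for UTOpiA when any 1 liver was left out, and all 8 markers stayed called throughout.

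**Figure D1:**
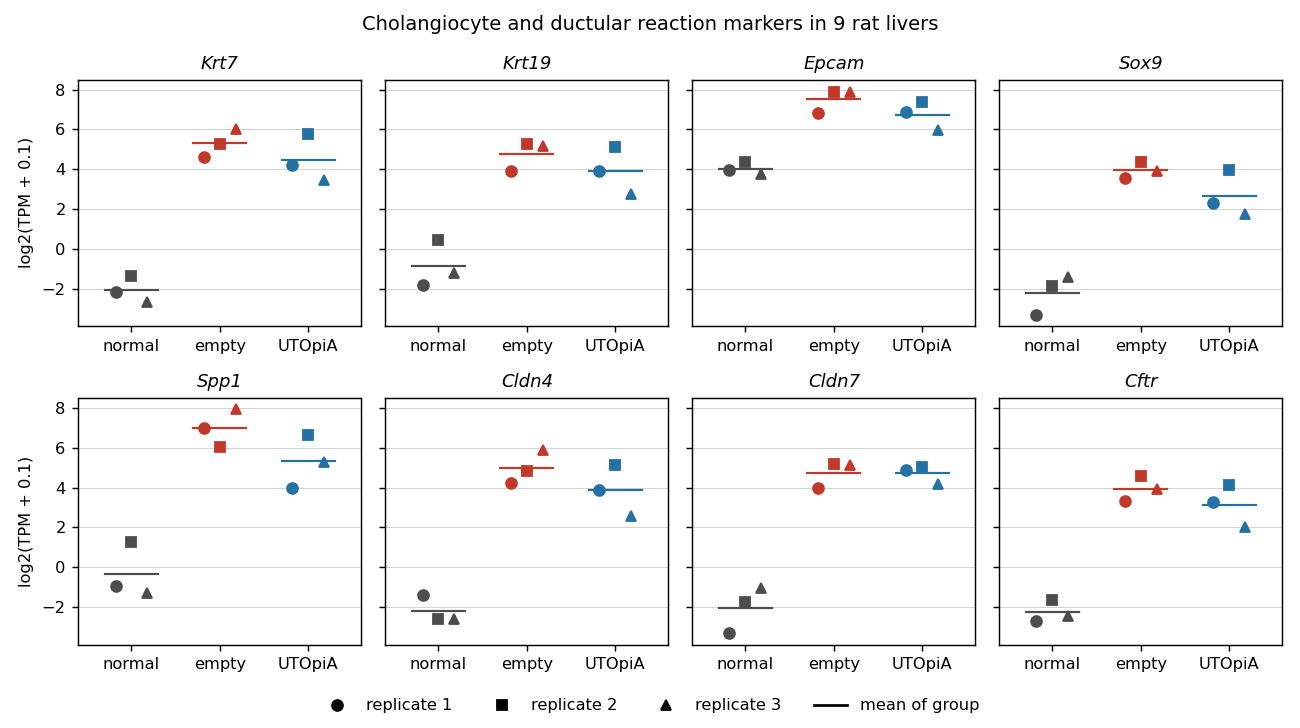
Levels of the 8 markers in each of 9 livers, with log2(TPM + 0.1) on the vertical axis and the 3 groups on the horizontal axis. Symbols give the replicate and bars the mean of the log2 values of 3 livers. For every marker the 6 ACLF livers sit above the 3 normal livers, and the empty and UTOpiA livers overlap.

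Ranked by mean TPM, the order in normal livers was Epcam (16.4 ± 3.65), Spp1 (1.01 ± 1.14), Krt19 (0.597 ± 0.593), Cldn7 (0.192 ± 0.192), Krt7 (0.154 ± 0.118), Sox9 (0.148 ± 0.137), Cldn4 (0.136 ± 0.123) and Cftr (0.121 ± 0.0900). Only Epcam lay apart from its neighbour, and the other neighbours overlapped between livers. In the empty group the order was Epcam (196 ± 70.4), Spp1 (147 ± 90.7), Krt7 (42.8 ± 21), Cldn4 (35.3 ± 20.9), Krt19 (29.7 ± 13.1), Cldn7, Cftr (16.3 ± 7.05) and Sox9 (15.6 ± 4.25). There only Spp1 and Krt7 were neighbours whose livers did not overlap, the lowest Spp1 value being 66 TPM and the highest Krt7 value 65.5 TPM. In the UTOpiA group it was Epcam (116 ± 51.9), Spp1 (51.9 ± 43.4), Krt7 (28 ± 23.3), Cldn7, Cldn4 (18.8 ± 15.4), Krt19 (18.7 ± 14.3), Cftr (10.3 ± 6.68) and Sox9 (7.84 ± 6.63), and all neighbours overlapped. Epcam and Spp1 thus led in each group, and Cftr and Sox9 came last in both ACLF groups.

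The ACLF groups differed in the content of the circuit, but not in that alone. According to the paper, rats that had survived were randomly selected for sacrifice in both groups. The paper reports very high mortality in the empty group and the highest survival in the UTOpiA group. The comparison is therefore one among survivors, who may be selected to different degrees, and the part of this selection was not tested. Between the ACLF groups none of the 8 markers was called by edgeR, and 0% of all tested genes were. In the main edgeR fit no marker reached an unadjusted p of 0.05, against 4.56% of tested genes that did so with a lower value in UTOpiA. DESeq2 also called none of the 8, where it called 0.511% of tested genes lower. With the replicate number as a block, edgeR gave an unadjusted p of 0.0391 for Sox9, 0.0472 for Epcam and 0.0493 for Cftr. None of these was called (adjusted p = 0.530, 0.541 and 0.546). In limma on log2(TPM + 1) the unadjusted p was 0.0284 for Sox9 and 0.0347 for Spp1, and neither was called (adjusted p = 0.424 and 0.435). Fitted values were below 0 for 7 of 8, all but Cldn7, whose sign turned with the scaling and with the liver left out, and 49.8% of all tested genes had a value below 0. The median of the 8 was -0.59 and that of all tested genes 0.00 on the log2 scale. No marker had TPM ranges that were apart between the ACLF groups, whereas 8.62% of tested genes lay wholly lower in UTOpiA. Exact two-sided permutation tests of TPM gave p from 0.200 to 0.700.

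The intervals of these differences were wide. For Spp1 the log2 difference of UTOpiA from empty was -1.34 (95% interval -2.93 to 0.25, edgeR adjusted p = 0.549). For Sox9 it was -0.91 (95% interval -2.07 to 0.25, edgeR adjusted p = 0.580), and for Cldn4 it was -0.80 (95% interval -1.99 to 0.39, edgeR adjusted p = 0.637). When 1 liver was left out, Spp1 ran from -0.84 (without empty replicate 3) to -1.95 (without UTOpiA replicate 2), Cldn4 from -0.30 to -1.46 with the same livers left out, and Sox9 from -0.62 to -1.63. A fall by more than 2-fold lay inside the interval of each of these genes, as did no change. Epcam had the narrowest interval, at -0.61 (95% interval -1.26 to 0.05, edgeR adjusted p = 0.511). Over the same omissions Epcam ran from -0.41 to -0.85. Cftr gave -0.57 (95% interval -1.57 to 0.44, edgeR adjusted p = 0.695), running from -0.16 to -0.99. The keratins were close to each other, with -0.56 (95% interval -1.80 to 0.67, edgeR adjusted p = 0.755) for Krt19 and -0.51 (95% interval -1.58 to 0.57, edgeR adjusted p = 0.747) for Krt7, and they ran from -0.23 to -1.16 and from -0.14 to -1.21. Cldn7 was the marker nearest to 0, at 0.09 (95% interval -0.69 to 0.87, edgeR adjusted p = 0.956), with a sign that turned under other scalings, and its interval leaves out a change of 2-fold in either direction.

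**Figure D2:**
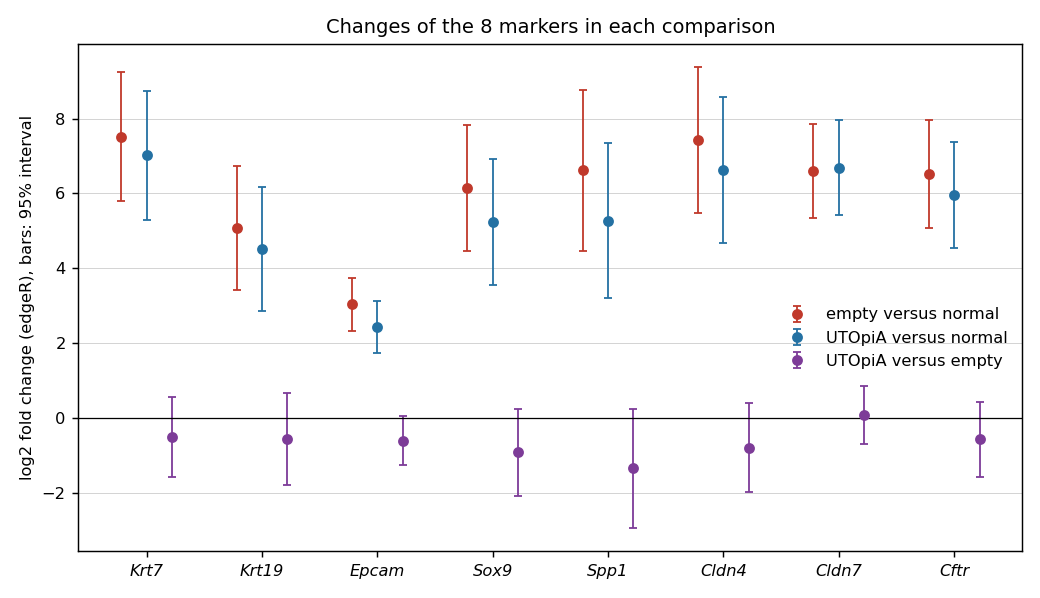
Log2 fold changes of the 8 markers from edgeR in 3 comparisons, with 95% intervals as bars and the markers on the horizontal axis. Intervals against normal lie above 0 for every marker, while those of UTOpiA against empty all span 0.

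The UTOpiA livers differed widely among themselves. UTOpiA replicate 2 had the highest TPM of the UTOpiA livers for 8 of 8 markers and lay inside the range of the empty livers for all 8. UTOpiA replicate 3 was the lowest of the 6 ACLF livers for 6 of 8 markers and below every empty liver for 7, and UTOpiA replicate 1 was below every empty liver for 5. In the empty group replicate 1 was the lowest for 7 of 8 markers. Summed over the 8 markers, the level was 16.3, 25 and 15 TPM in normal livers, 338, 491 and 705 TPM on the empty circuit and 225, 458 and 152 TPM on UTOpiA. The order of the livers was not the same for every marker. Empty replicate 2 was the highest empty liver for Krt19, Epcam, Sox9, Cldn7 and Cftr, and empty replicate 3 for Krt7, Spp1 and Cldn4.

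The range across the 6 ACLF livers, highest over lowest TPM, was 15.3-fold for Spp1 and 10.1-fold for Cldn4. It was 6.22-fold for Sox9, 6.08-fold for Krt7, 6.02-fold for Cftr and 5.77-fold for Krt19. Epcam and Cldn7 varied least, by 3.76-fold and 2.31-fold. Without UTOpiA replicate 2, DESeq2 called Sox9 lower in UTOpiA than in empty livers (log2 fold change -1.67, adjusted p = 0.000521) and Krt7 lower (-1.24, adjusted p = 0.0490), where 2.45% of tested genes were called lower. The same omission in edgeR called none of the 8, with an unadjusted p under 0.05 for 5 of them, and gave Sox9 -1.63 (adjusted p = 0.121) and Krt7 -1.21 (adjusted p = 0.160). No label sets this liver apart.

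To compare the markers with each other inside a liver, each was divided by Krt19 of the same liver as log2 of TPM + 0.01 (the constant weighs on genes near 0). The 7 ratios were compared in 3 comparisons, 21 in all. The ratio of Krt7 had a mean of -1.68 ± 1.00 in normal, 0.53 ± 0.45 in empty and 0.56 ± 0.20 in UTOpiA livers. Epcam had 5.20 ± 1.17 in normal, 2.76 ± 0.17 in empty and 2.83 ± 0.50 in UTOpiA livers. For Cftr the ratio was -1.96 ± 0.46 in normal, -0.83 ± 0.38 in empty and -0.79 ± 0.19 in UTOpiA livers. These were the 3 ratios whose ACLF and normal livers did not overlap. Each had p = 0.1 in an exact two-sided permutation test and an adjusted p of 0.35 over the 21. With 3 against 3 livers 0.1 is the smallest p, so the test could call no ratio. With 0.1 in place of 0.01 added to TPM, the difference of the Cftr ratio from normal went from 1.13 to 0.57 for empty and from 1.17 to 0.61 for UTOpiA.

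Relative to Krt19, the log2 ratios of Krt7, Epcam and Cftr differed between UTOpiA and empty livers by 0.03, 0.07 and 0.04, and without 1 liver by -0.23 to 0.19, -0.14 to 0.35 and -0.18 to 0.18. The ratios of Sox9, Cldn4, Spp1 and Cldn7 differed by -0.43, -0.26, -0.82 and 0.81, and all 7 overlapped between the ACLF groups. These 4 differences depended on single livers, with Spp1 running from -1.55 without empty replicate 2 to -0.17 without UTOpiA replicate 1, Cldn4 from -0.57 to -0.0047, Sox9 from -0.64 to -0.18 and Cldn7 from 0.48 to 1.24. All ratios in normal livers rest on few reads, since Krt19 itself had 2, 15 and 4 reads there.

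**Figure D3:**
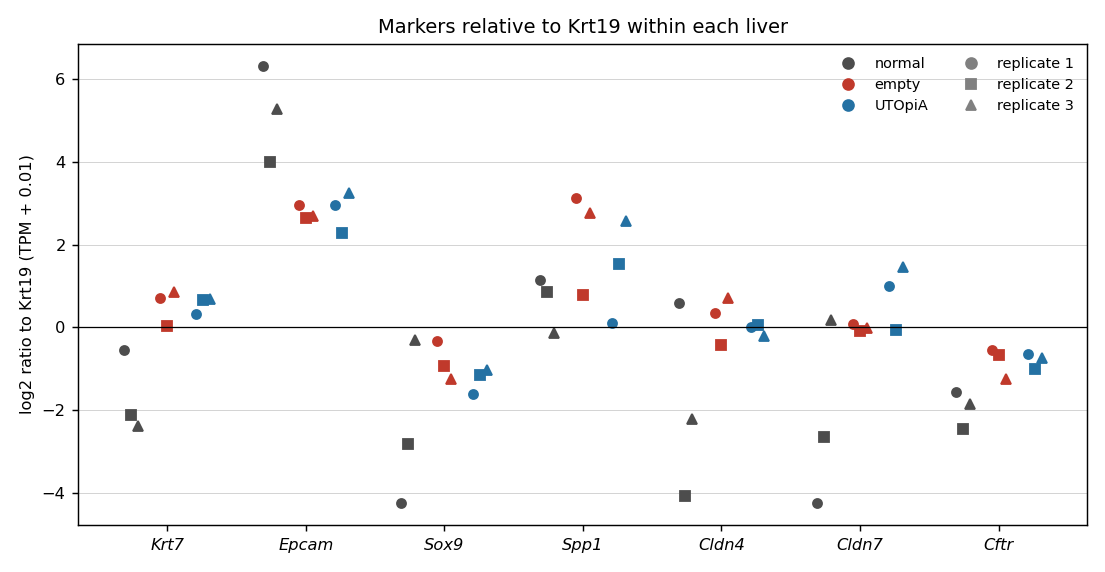
Log2 ratio of each marker to Krt19 within a liver, from TPM + 0.01, for 7 markers on the horizontal axis. Colours give the group and symbols the replicate. Krt7 and Cftr lie higher and Epcam lower in all 6 ACLF livers than in the 3 normal livers, while empty and UTOpiA overlap for all 7.

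Genes with a like pattern were sought among 12857 genes with a mean of at least 1 TPM, by the root mean square difference of their centred log2 CPM from the average of the 8 markers over the 9 libraries. The closest was Aldh1a2, an enzyme of retinoic acid synthesis, at 0.16. It was at 0.111, 0.313 and 0.206 TPM in normal, 15.5, 22.7 and 35.9 TPM in empty and 10.1, 32.8 and 7.26 TPM in UTOpiA livers. Next came the tetraspanin Tspan8 (0.19), the gamma-glutamyltransferase Ggt1 (0.20), the chemokine Cxcl16 (0.23) and Slit3 (0.23), a secreted guidance protein. Both Tspan8 and Ggt1 belong to the wider cholangiocyte list. All of these genes share the 9 libraries, their scaling and the step from normal to ACLF. The markers themselves ranked 27 (Sox9), 41 (Krt19), 45 (Cldn4), 53 (Cftr), 56 (Krt7), 79 (Cldn7), 273 (Spp1) and 339 (Epcam). Many other genes thus lay closer to the average than Spp1 or Epcam did. This distance counts the size of a change as well as the order of livers, and Epcam had the smallest change from normal.

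A wider list of 30 cholangiocyte genes, of which 27 were tested, mostly went the same way. Several passed the filter on low counts through the ACLF livers, among them Itgb6 (0.0497 to 0.252 TPM in normal livers), Prom1 (0 to 0.421) and Fxyd3 (0 to 1.56). Against normal, 22 of 27 were called higher and 1 lower in the empty group, and 20 higher and 0 lower in the UTOpiA group. The median log2 fold changes were 4.54 and 3.91. Of all tested genes 20.7% and 18.2% were called higher, and 11.1% and 6.81% lower. The count of 22 ran from 14 to 25 over 19 alternatives. Itgb6, an integrin subunit of injured epithelium, had a log2 fold change of 7.67 between empty and normal by edgeR (adjusted p = 0.000239). Cd24, a surface glycoprotein, gave 6.17 (adjusted p = 0.000137). Fxyd3, a regulator of the sodium pump, gave 6.04 (adjusted p = 0.000626) and Prom1, a membrane protein of progenitor and duct cells, gave 6.01 (adjusted p = 0.000417).

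The list also held members that did not follow. Onecut2, a transcription factor active in liver and bile duct development, was called lower in the empty group (-1.36, edgeR adjusted p = 0.000125). Onecut1 (-1.19), Cdh1 (0.61) and Itgb4 (0.94) were among those not called. Of these 4 genes, named after their values were seen, Onecut1, Onecut2 and Cdh1 are also expressed by hepatocytes, and Cdh1 was at 44.4 to 54.1 TPM in normal livers. Between UTOpiA and empty no gene of the list was called, 22 of 27 had a value below 0 and the median was -0.68. An unadjusted p under 0.05 by edgeR was reached by 6 genes in both directions, among them Elf3 (-1.10), Ggt1 (-0.92) and Mmp7 (-2.07) with a value below 0 and Onecut1 (1.05) and Onecut2 (0.87) with one above 0.

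Genes of bile duct secretion, which act with Cftr, were tested for 11 of 12. In empty livers 9 were called higher and 1 lower than normal, and under UTOpiA 7 higher and 0 lower, with medians of 2.48 and 1.95. The shares of all tested genes were 20.7% and 18.2% called higher, and 11.1% and 6.81% called lower. Sctr, the secretin receptor that triggers bicarbonate secretion through Cftr, was at 0.849, 0.799 and 1.18 TPM in normal, 56.7, 66.6 and 141 TPM in empty and 29, 109 and 19.5 TPM in UTOpiA livers. Its log2 fold change was 5.98 between empty and normal (edgeR adjusted p = 0.000276). The potassium channel Kcnn4 (4.71), the glucose transporter Slc5a1 (3.32) and the chloride loader Slc12a2 (2.98) were called higher too. Slc4a2, the chloride-bicarbonate exchanger that completes the pathway, was not called (-0.29, adjusted p = 0.104), and the nucleotide receptor P2ry2 was called lower (-1.13, adjusted p = 0.0399), a call that was lost in 14 of 19 alternatives. The median of the list was -0.63 between UTOpiA and empty, with no gene called.

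Signals that drive the ductular reaction, from the TWEAK, Notch, YAP and HGF pathways, were tested for 13 of 15 genes. Of these 7 were called higher in empty and 6 in UTOpiA livers than in normal, and none lower, with medians of 1.49 and 0.93. Among all tested genes 20.7% and 18.2% were called higher, and 11.1% and 6.81% lower. Of the YAP target genes, Ankrd1 was at 5.86 (edgeR adjusted p = 0.000363) and Ccn2 at 5.68 (adjusted p = 0.000169), with Ccn1 at 3.49 (adjusted p = 0.000809), while Amotl2 was not called (0.89, adjusted p = 0.0384). Tnfrsf12a, the receptor of TWEAK, gave 4.34 (adjusted p = 0.000259). Yap1 itself was not called (-0.30, adjusted p = 0.0932), nor was Notch2 (0.19, adjusted p = 0.399). Between UTOpiA and empty no gene of the list was called and the median was -0.61, with Ankrd1 at -1.51, Ccn2 at -1.37 and Ccn1 at -1.19. These 3 and the Notch target Hes1 (-0.63) had an unadjusted p under 0.05 by edgeR.

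Among 9 other claudins tested, 4 were called higher and 1 lower in empty than in normal livers, and 5 higher and 1 lower in UTOpiA than in normal livers. Over all tested genes 20.7% and 18.2% were called higher, and 11.1% and 6.81% lower. The 1 of 9 called lower in empty livers is near that share. Cldn6, typical of fetal epithelia, was at 0.161, 0.152 and 0.225 TPM in normal, 18.7, 34.8 and 63.4 TPM in empty and 19.5, 66.6 and 9.32 TPM in UTOpiA livers. Its log2 fold change was 7.15 between empty and normal (edgeR adjusted p = 0.000445). Cldn8 (5.10), the endothelial Cldn5 (4.24) and Cldn15 (2.22) were called higher as well. Cldn14 was called lower (-1.65, adjusted p = 0.00493), while Cldn1 and Cldn2, which hepatocytes express, were not called (-0.96 and -0.22).

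Markers of other cell types moved in the same livers, where 20.7% (empty) and 18.2% (UTOpiA) of all tested genes were called higher than normal. Of 11 hepatocyte genes, 7 were called lower and 1 higher in empty than in normal livers, and 5 lower and 1 higher in UTOpiA than in normal livers, where 11.1% and 6.81% of all tested genes were called lower. Alb gave -3.08 between empty and normal, Ttr -2.99 and Cps1 -2.05, while Pck1, an enzyme of glucose production, gave 3.10. Of 12 neutrophil markers 8 were tested, most of which passed the filter on low counts through the ACLF livers. With at least 10 counts asked for in every library, 2 were called higher in each ACLF group, and under the filter used here 8 were called higher in empty and 8 in UTOpiA than in normal livers, among them S100a8 (7.30), S100a9 (6.79) and Mmp8 (7.53). Cxcr2, a chemokine receptor of neutrophils, was listed at 0 TPM in each normal liver and at 0.987 to 11 TPM in ACLF livers. The median edgeR log2 fold change of the neutrophil list was 6.68 for empty and 5.77 for UTOpiA against normal, beside 6.56 and 5.62 for the 8 markers. The summed TPM of the neutrophil list was 6.76 to 9.22 in normal, 215 to 1243 in empty and 187 to 567 in UTOpiA livers. The granule genes Mpo and Elane, which define the cell's precursors, stayed below the filter on low counts. Of the stellate cell and fibroblast list 9 of 11 genes were called higher in empty and 10 in UTOpiA livers, with Dcn at 6.55, Timp1 at 6.05, Des at 4.59 and Col1a1 at 4.21, and their summed TPM was 120.3 to 134 in normal, 1149 to 2110.2 in empty and 755 to 1665 in UTOpiA livers.

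Mesothelial cells, which cover the liver, share keratins with duct cells. Of 5 mesothelial markers 3 passed the filter on low counts, through the ACLF livers, and these 3 were called higher in both ACLF groups. Msln was at 0.229, 0.970 and 0.372 TPM in normal, 363, 359.8 and 692 TPM in empty and 193, 359.7 and 64.9 TPM in UTOpiA livers, with a log2 fold change of 9.25 between empty and normal (edgeR adjusted p = 6.90e-05). Upk3b (4.02) and Wt1 (3.06) were far lower in level, at no more than 7.49 TPM in any liver, and Upk1b and Lrrn4 stayed below the filter on low counts. Pancreatic tissue, which also expresses duct keratins, gave 0 reads for Prss1, Pnlip and Ctrb1 in every library, at most 2 for Cpa1, 3 for Cel and 33 for Cpb1, and its 1 tested marker, Cela1, was not called (0.21). Cpb1 was highest in normal replicate 2, at 3.11 TPM against 0 to 0.609 TPM in the other livers, and that liver was also the highest normal one for Krt7, Krt19, Epcam, Spp1 and Cftr. Of 8 endothelial markers 1 was called higher (Cdh5, 1.03) and 1 lower (Kdr, -1.54) in empty than in normal livers. These counts are near or below the shares of all tested genes, 20.7% higher and 11.1% lower. Of 8 proliferation genes 5 were called higher in each ACLF group, against 20.7% (empty) and 18.2% (UTOpiA) of all tested genes. They included Ccna2 (2.35), Ccnb1 (2.28), Top2a (2.28) and Mki67 (1.80). The part of these cell types in the marker levels was not tested. None of the genes in any of these lists was called between UTOpiA and empty livers. The median log2 difference of UTOpiA from empty was -0.80 for the neutrophil list, with 8 of 8 genes below 0, and -0.46 for the macrophage list, with 6 of 11 below 0. It was -0.39 for the mesothelial list, -0.06 for stellate cells and fibroblasts, 0.04 for endothelium, 0.27 for proliferation, 0.37 for the other claudins and 0.47 for hepatocytes, where 2 of 11 genes were below 0.

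Liver by liver, the median log2 difference of the 8 markers from the normal livers (CPM + 0.5, which compresses low genes) was 4.73, 5.27 and 5.23 for the empty livers, in replicate order, and 4.04, 5.24 and 3.89 for the UTOpiA livers. The wider cholangiocyte list gave 3.59, 4.04 and 4.29 in empty and 2.97, 4.17 and 2.71 in UTOpiA livers, with UTOpiA replicate 2 again the high one and UTOpiA replicate 3 the low one. The neutrophil list had another order, with 3.80, 2.17 and 4.70 in empty livers, where replicate 2 was the lowest, and 3.09, 3.46 and 2.29 in UTOpiA livers. The macrophage list gave 2.36, 1.34 and 1.63 in empty livers and 1.54, 1.5 and 0.78 in UTOpiA livers. For the stellate cell and fibroblast list the medians were 2.49, 3.00 and 3.25 in empty livers and 3.53, 4.03 and 3.52 in UTOpiA livers. The hepatocyte list lay below normal throughout, with -1.64, -0.82 and -1.67 in empty livers and -0.75, -1.28 and -0.92 in UTOpiA livers. UTOpiA replicate 2, with the highest marker levels of its group, also had the highest neutrophil and stellate medians and the lowest hepatocyte median of its group.

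**Figure D4:**
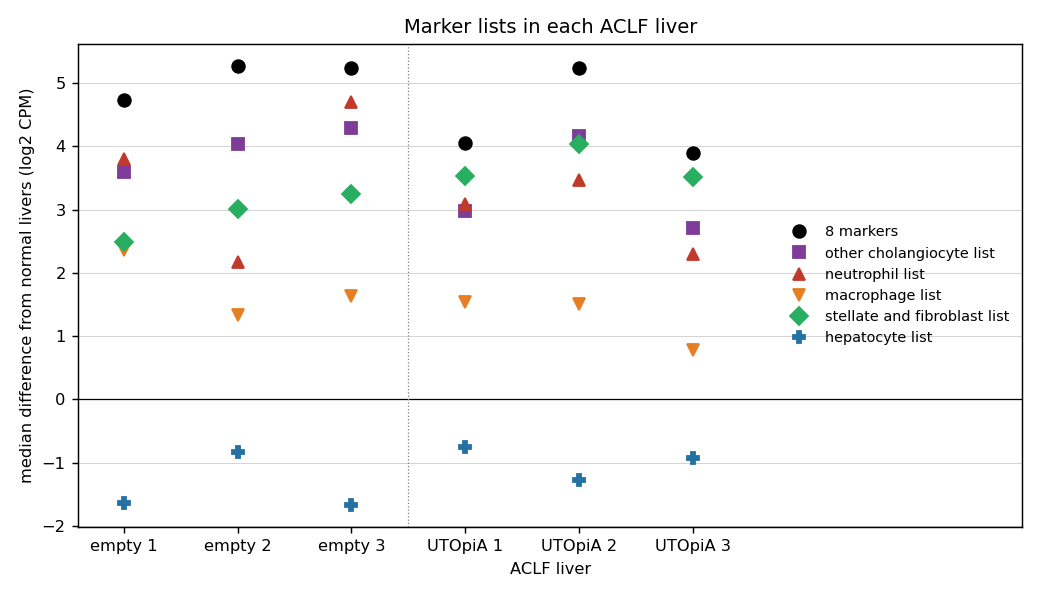
Median log2 difference of 6 gene lists from the normal livers in each of the 6 ACLF livers on the horizontal axis, from log2 CPM. Black circles are the 8 markers, which stand above the other lists in every ACLF liver on this scale, though not by the edgeR medians of the neutrophil list, and the other symbols are the wider cholangiocyte, neutrophil, macrophage, stellate cell and hepatocyte lists.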

How the data were processed

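Polyadenylated RNA of 9 rat livers was sequenced as paired ends. The study's methods name Cutadapt 1.9.1, HISAT2 2.0.1, featureCounts 2.6.0, the mouse build GRCm38 and an MGIEasy kit, while the submitters' processing notes name Trimmomatic and rn6 and the labels NEBNext kits. The tables list rat Ensembl genes, and their positions are printed as deposited. Whether reads were counted by strand is not given in the sources used here. The authors deposited raw counts per gene, as whole numbers, and TPM, which are scaled by gene length.

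Counts were fitted with edgeR 4.0.16 in R 4.3.3 (filterByExpr on the 3 groups, TMM, robust quasi-likelihood, all 9 libraries, 1 mean per group), two-sided. Calls required more than a 2-fold change and a p below 0.05 after Benjamini-Hochberg adjustment over 14089 genes. Exact permutation tests used scipy 1.17.1. The steps were tested on simulated data. Alternatives were DESeq2 1.42.0, limma 3.58.1 on log2(TPM + 1) or log2(TPM + 0.1), other scalings and filters, a replicate block and leaving out each liver. DESeq2 without each ACLF liver was added after the results were seen.

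The markers and gene lists were chosen with earlier results of these data known. Of each other list, up to 4 called genes with the largest absolute log2 fold change between empty and normal and a mean of at least 1 TPM are named. The listed genes Sox4, Pkhd1, Cyp3a2, Timd4, Col1a2 and Pecam1 were not analysed here, and results on 2 other listed genes are not reported here. The remaining listed genes enter only the counts and medians of their lists unless named, and genes named outside the rule were chosen after their values were seen. Promoters came from RefSeq (GRCr8), matched by symbol for 4 of 8 markers. No protein sequence was used here. Replicate numbers were not treated as pairs in the main fit.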

Additional observations from a re-analysis of the deposited data

How the results depend on the processing

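The 8 markers remained called higher than normal, in both ACLF groups, under DESeq2, limma, other scalings, no filter and the omission of any 1 liver (8 to 8 called), and 0 to 0 were called between UTOpiA and empty when 1 liver was left out with edgeR. With at least 10 counts required in every library, 1 marker (Epcam) was left and called in each comparison with normal. DESeq2 without UTOpiA replicate 2 called 2 markers lower in UTOpiA than in empty livers, and with any other ACLF liver left out it called 0. Only Cldn7 changed sign, between UTOpiA and empty, where it was never called and the cause was not tested. Its log2 fold change became -0.046 (limma on log2(TPM + 1)), -0.045 (limma on log2(TPM + 0.1)), -0.046 (limma on log2(TPM + 1), no filter), -0.10 (library totals alone), -0.19 (without empty replicate 1), -0.0023 (without UTOpiA replicate 1), -0.21 (DESeq2 without empty replicate 1), -0.011 (DESeq2 without UTOpiA replicate 1), and with edgeR and 1 liver left out it ran from -0.19 to 0.30. Of list counts of 4 or more, those that moved by over 1.5 times under at least 1 of 19 alternatives were cholangiocyte genes called higher for empty versus normal (22, range 14 to 25), cholangiocyte genes called higher for UTOpiA versus normal (20, range 12 to 24), bile duct secretion genes called higher for UTOpiA versus normal (7, range 4 to 8), ductular reaction signals genes called higher for UTOpiA versus normal (6, range 5 to 10), other claudins genes called higher for empty versus normal (4, range 0 to 5), other claudins genes called higher for UTOpiA versus normal (5, range 1 to 5), hepatocyte genes called lower for empty versus normal (7, range 4 to 8), hepatocyte genes called lower for UTOpiA versus normal (5, range 2 to 6), neutrophil genes called higher for empty versus normal (8, range 2 to 8), neutrophil genes called higher for UTOpiA versus normal (8, range 2 to 8), proliferation genes called higher for empty versus normal (5, range 2 to 5), proliferation genes called higher for UTOpiA versus normal (5, range 2 to 5). Counts of 1 also moved, for cholangiocyte genes lower in empty than normal (Onecut2; range 0 to 2, moved in 7), bile duct secretion lower in empty (P2ry2; 0 to 1, in 14), other claudins lower in UTOpiA (Cldn14; 0 to 1, in 10), endothelial higher in empty (Cdh5; 0 to 2, in 5) and in UTOpiA (Vwf; 0 to 2, in 9), and endothelial lower in empty (Kdr; 0 to 2, in 3) and in UTOpiA (Kdr; 1 to 2, in 2). Counts of 0 became 1 under 1 or 2 alternatives for 6 list counts of lower genes. Scaling by library totals alone moved the median of all tested genes to 0.60 (empty against normal), 0.42 (UTOpiA against normal) and -0.18 (UTOpiA against empty), with the markers' medians at 7.11, 6.05 and -0.71.

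The replicate numbers were checked as pairs. Deviations of same-numbered livers from their group means correlated at -0.20 to 0.08, and those of differently numbered livers at -0.21 to 0.32. The numbers were therefore not used as pairs, though these correlations cannot show whether livers were handled in pairs. A fit with the replicate number as a block called 8 markers higher than normal in each ACLF group and 0 between UTOpiA and empty, where the markers' median was -0.63.

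With 3 livers per group the exact test cannot go below p = 0.1. For 7 markers no normal liver held more than 30 reads, and the size of their change from normal moved by over 1.5 times when 1 normal liver was left out.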
